A study of Mus musculus with 16 samples.

Results

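Amino acid transporter genes were followed by RNA-seq in the mouse mammary cancer line 6DT1, whose strain is labelled FVB/N1. Members were all genes of the count table whose symbols begin with Slc1a, Slc3a, Slc7a, Slc36a, Slc38a or Slc43a followed by a number, which gave 34 genes of 25745. The 16 libraries form 4 groups of 4. Libraries 1 to 4 came from cells given a lentivirus made to express CLIC4 and left untreated, and libraries 5 to 8 from the same kind of cells given 1 µM hydrogen peroxide (H2O2) for 24 h. Libraries 9 to 12 came from untreated cells given an empty vector, and libraries 13 to 16 from empty-vector cells given H2O2. All groups share the 6DT1 background and a lentiviral transduction. The labels conflict on the genotype, since in their descriptions the lentivirus libraries are wild type and those of the empty vector CLIC4 knockout, whereas the series text names only the vectors. The labels do not say whether the libraries of a group were separate cultures or whether the cells were clones, so the spread that p-values measure is that between libraries, which may be technical.

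Amino acids cross the plasma membrane through families of carriers with overlapping substrates. The heteromeric carriers pair a heavy chain, which brings the complex to the cell surface, with a light chain that moves the amino acid, and most of them exchange one amino acid for another. Other carriers use the sodium gradient to load the cell with small neutral amino acids such as glutamine, which the exchangers then trade for essential amino acids. In carcinomas these genes are known as targets of the amino acid response, in which the transcription factor ATF4 acts, and the cystine carrier among them feeds glutathione synthesis and so oxidant defence.

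Total counts ran from 47.09 M to 61.95 M per library. Clic4 (chromosome 4, 135213969 to 135272814, mm10) was measured at 222 to 258 TMM-scaled CPM (counts scaled to library size) in the 8 lentivirus libraries and at 39.5 to 45.1 CPM in 7 of the 8 empty-vector libraries. Counts of the vector-borne and the resident gene are not separated in the table. Library 11, an untreated empty-vector library, held 138 CPM of Clic4 and stood apart over all genes. Its highest correlation with another library of its group was 0.9258 (Pearson, across genes), and all other pairs of 1 group reached at least 0.9978. Counts of calls and the untreated vector changes of the tested transporters are therefore given with 16 libraries and without library 11. Leaving it out lowered the biological coefficient of variation from 23.1% to 5.28%. Of the epithelial markers, Krt8, Krt18 and Krt19 were abundant. Epcam and Cdh1 reached at most 0.126 CPM outside library 11, where they stood at 13.0 and 1.53 CPM. The 5 epithelial markers summed to 564 to 618 CPM with the lentivirus and 921 to 1029 CPM with the empty vector apart from library 11 (1396 CPM), and of the 3 tested all 3 were called higher with the empty vector in both vector comparisons. Other marker lists also differed between the vectors. The 3 endothelial markers summed to 79.9 to 85.9 CPM with the lentivirus, almost all of it Cdh5, and to 3.53 to 7.72 CPM with the empty vector. The 4 basal markers summed to 3.90 to 5.02 and 0.177 to 1.43 CPM, mostly Trp63. The 5 fibroblast markers summed to 13.6 to 18.2 and 17.0 to 21.8 CPM, but 3 of them (Col1a1, Dcn and Lum) were called lower with the empty vector and 2 (Pdgfra and Col1a2) higher, in both vector comparisons, with a median log2 change of -1.35 untreated and -1.56 treated. Most of the sum with the empty vector was Pdgfra (13.8 to 16.6 CPM, against 4.14 to 6.16 CPM with the lentivirus), while Dcn stood at 0.0518 to 0.149 CPM against 1.70 to 2.46 CPM. The immune markers Ptprc, Itgam and Adgre1 summed to at most 0.237 and to 0.907 to 5.07 CPM, where Ptprc and Adgre1 were at 0 with the empty vector and Itgam made up the sum. The adipocyte markers summed to at most 0.130 CPM in all libraries. The part of these marker differences in the results on transporters was not tested, and in bulk samples fewer cells of a type and less RNA per cell cannot be told apart.

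The promoters of 24 of the 34 genes had an entry in the RefSeq table (GRCm38.p6), and the 250 bases before the most upstream listed start were searched on both strands for a pair of short motifs. The first, TGATGNAA, where N is any base, is the core of the C/EBP-ATF response element, to which ATF4 is known to bind in amino acid response genes. It occurred in 955 of 27025 promoters of that length (3.53%) and in 2 of the 24 transporter promoters, those of Slc7a11 and Slc7a7. Both are printed because they hold this motif, and capitals mark the matches. Both genes were called higher with the empty vector by edgeR in untreated and in treated cells. A part of the motif in these calls was not tested. The Slc7a11 stretch (chr3:50443624-50443725, minus strand, 112 to 11 bases before the start) holds 2 matches, one on each strand. The Slc7a7 stretch (chr14:54418022-54418141, minus strand, 197 to 78 bases before the most upstream of several listed starts) holds 1 match on the strand of the gene.
Slc7a11: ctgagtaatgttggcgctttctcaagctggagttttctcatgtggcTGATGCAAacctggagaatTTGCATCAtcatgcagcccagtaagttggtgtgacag
Slc7a7: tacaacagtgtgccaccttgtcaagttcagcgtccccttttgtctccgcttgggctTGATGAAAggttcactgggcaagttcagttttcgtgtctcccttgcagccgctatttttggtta
The second motif, TGACNNNGC, is the core of the antioxidant response element and overlaps none of these matches. It occurred in 2740 promoters (10.1%) and in 3 of the 24, those of Slc38a2, Slc43a1 and Slc7a1. These matches describe letters in a window and say nothing of binding.

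Per length, the carriers of these cells ranged over several orders of magnitude. FPKM values, which are scaled to gene length and depth, were deposited for 32 of the 34 genes, with Slc1a2 and Slc1a3 not analysed on this scale. In untreated lentivirus cells Slc3a2, the heavy chain CD98hc, stood highest at 79.0 ± 1.19 FPKM (SD, n = 4). Next came Slc38a2, a sodium-coupled carrier of small neutral amino acids, at 50.1 ± 3.46 FPKM, and Slc7a5, the large neutral amino acid carrier LAT1, at 40.5 ± 1.70 FPKM. Slc38a10 followed at 35.7 ± 0.862 FPKM, Slc1a5 at 24.7 ± 1.35 FPKM and Slc7a1 at 21.5 ± 0.272 FPKM, and the ranges of these 6 genes over the 4 libraries did not overlap. Slc38a7 (16.3 to 19.3 FPKM) and Slc38a1 (15.4 to 16.7 FPKM) overlapped in range. Slc38a6 (12.8 to 14.3 FPKM) overlapped neither of its neighbours in the order. Slc1a4 (12.2 to 12.5 FPKM) and Slc7a6 (11.0 to 11.4 FPKM) stood next. The cystine carrier Slc7a11 was low, at 0.228 ± 0.0499 FPKM, and 11 of the 32 genes had a mean below 0.1 FPKM. With the empty vector and H2O2 the order at the top was Slc3a2 (128 ± 6.63 FPKM), Slc7a5 (74.4 ± 3.07), Slc38a10 (65.4 ± 4.10), Slc38a2 (56.0 ± 0.825), Slc7a1 (48.0 ± 2.06) and Slc1a5 (46.3 ± 2.38 FPKM; SD, n = 4 each). The ranges of Slc7a1 (45.1 to 49.9 FPKM) and Slc1a5 (44.4 to 49.8 FPKM) overlapped in that group.

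**Figure D1:**
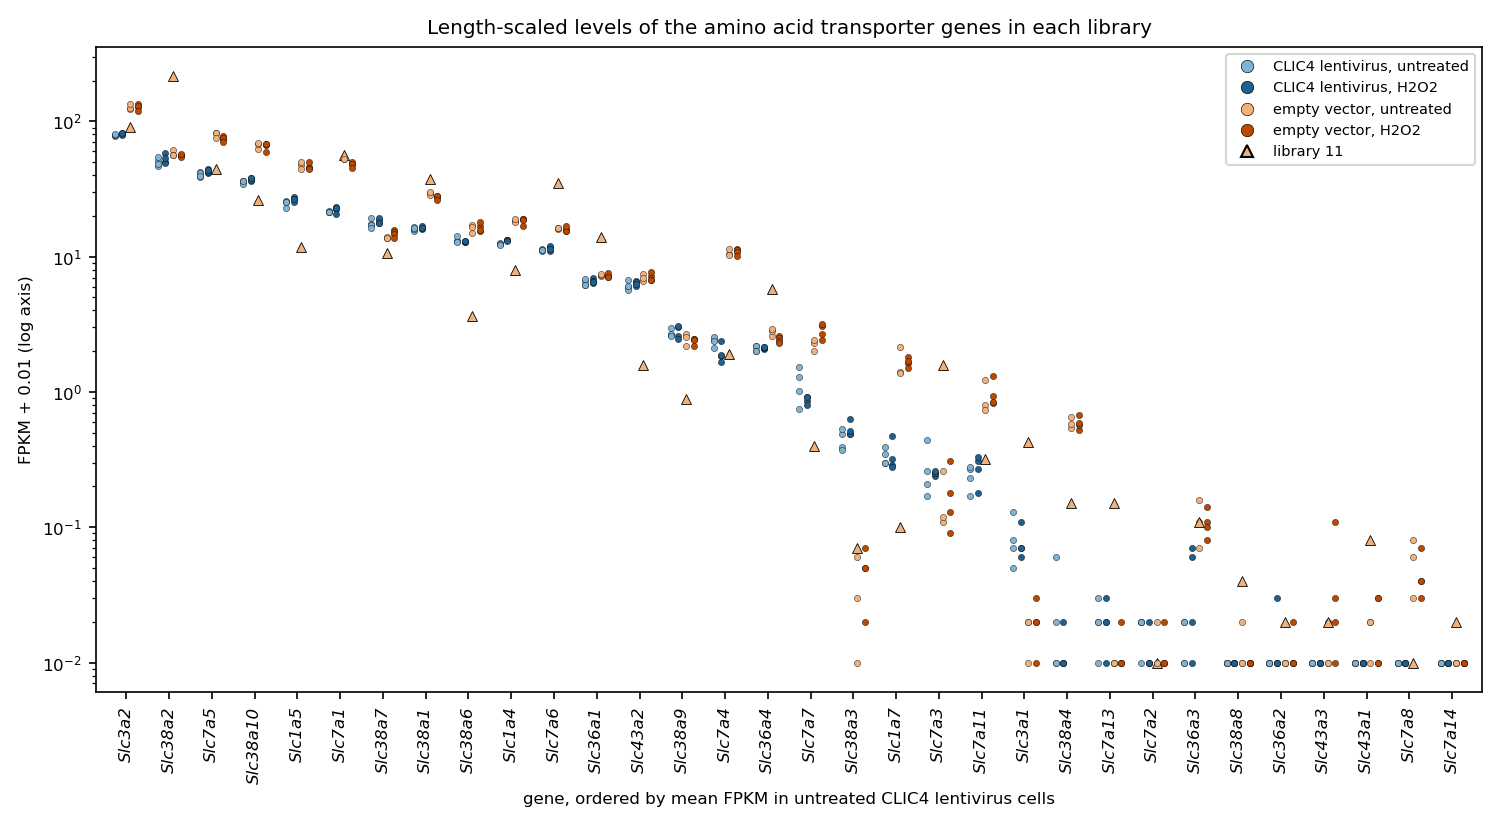
FPKM of the 32 deposited genes (y axis, log scale with 0.01 added) in every library, with genes on the x axis ordered by their mean in untreated lentivirus cells and points coloured by group. Slc3a2 stands highest in all groups apart from library 11, drawn as a triangle, where Slc38a2 reaches 215 FPKM.

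More of these genes were higher than lower with the empty vector, in untreated and in treated cells. The quasi-likelihood test of edgeR was fitted to all genes of all groups, and a gene was called at a Benjamini-Hochberg adjusted p under 0.05. The filter on low counts passed 22 of the 34 genes. In untreated cells 15 of the 22 were called higher with the empty vector, against 29.0% of all 14445 genes tested, and 3 were called lower, against 24.3%. Their median log2 change was 0.81 and that of all genes 0.03. In treated cells 12 were called higher (background 22.1%) and 2 lower (20.0%), with a median of 0.55 against -0.01. All 12 treated calls above and both below were among the untreated calls in the same direction. Such sharing was not counted over all genes, so it is not shown to be particular to these genes. A change of at least 2-fold was called higher for 8 and lower for 1 in untreated cells (background 12.1% and 9.81%), and for 6 and 1 in treated cells (9.63% and 7.59%). Without library 11 these counts were 7 and 2 untreated (10.1% and 10.3%) and 7 and 1 treated (10.3% and 8.62%), with Slc7a8 among the 7 in both.

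Without library 11 the filter passed 23 of the 34, with Slc7a8 added, and 18 were called higher and 4 lower in untreated cells (background 37.0% and 37.3%). The treated counts were 16 and 4 (36.6% and 37.2%), each again among the untreated calls, with the sharing over all genes likewise not counted. The medians were 0.68 and 0.66. Slc7a8, which had 0 counts with the lentivirus, lay above both medians as fitted and at its lower bound. Setting it to that bound could therefore not move them. On the TMM-scaled CPM, levels of the vectors did not overlap in untreated cells for 11 of the 22 genes above and 3 below (background 24.0% and 25.6%). Without library 11 this held for 16 and 4 (36.2% and 36.0%). In treated cells 15 lay above and 4 below without overlap (34.6% and 34.8%). Of the 22, Slc38a4 passed the filter only through the empty-vector libraries and Slc38a3 through all lentivirus libraries and library 11, so these 2 had to differ. The same holds for Slc7a8 without library 11, and the other 22 genes gave 17 calls above and 4 below untreated and 15 and 4 treated. All these counts, and those with 16 libraries, still hold Slc38a4 among the higher and Slc38a3 among the lower genes. With 16 libraries Slc38a3 was the only gene called at least 2-fold lower.

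**Figure D2:**
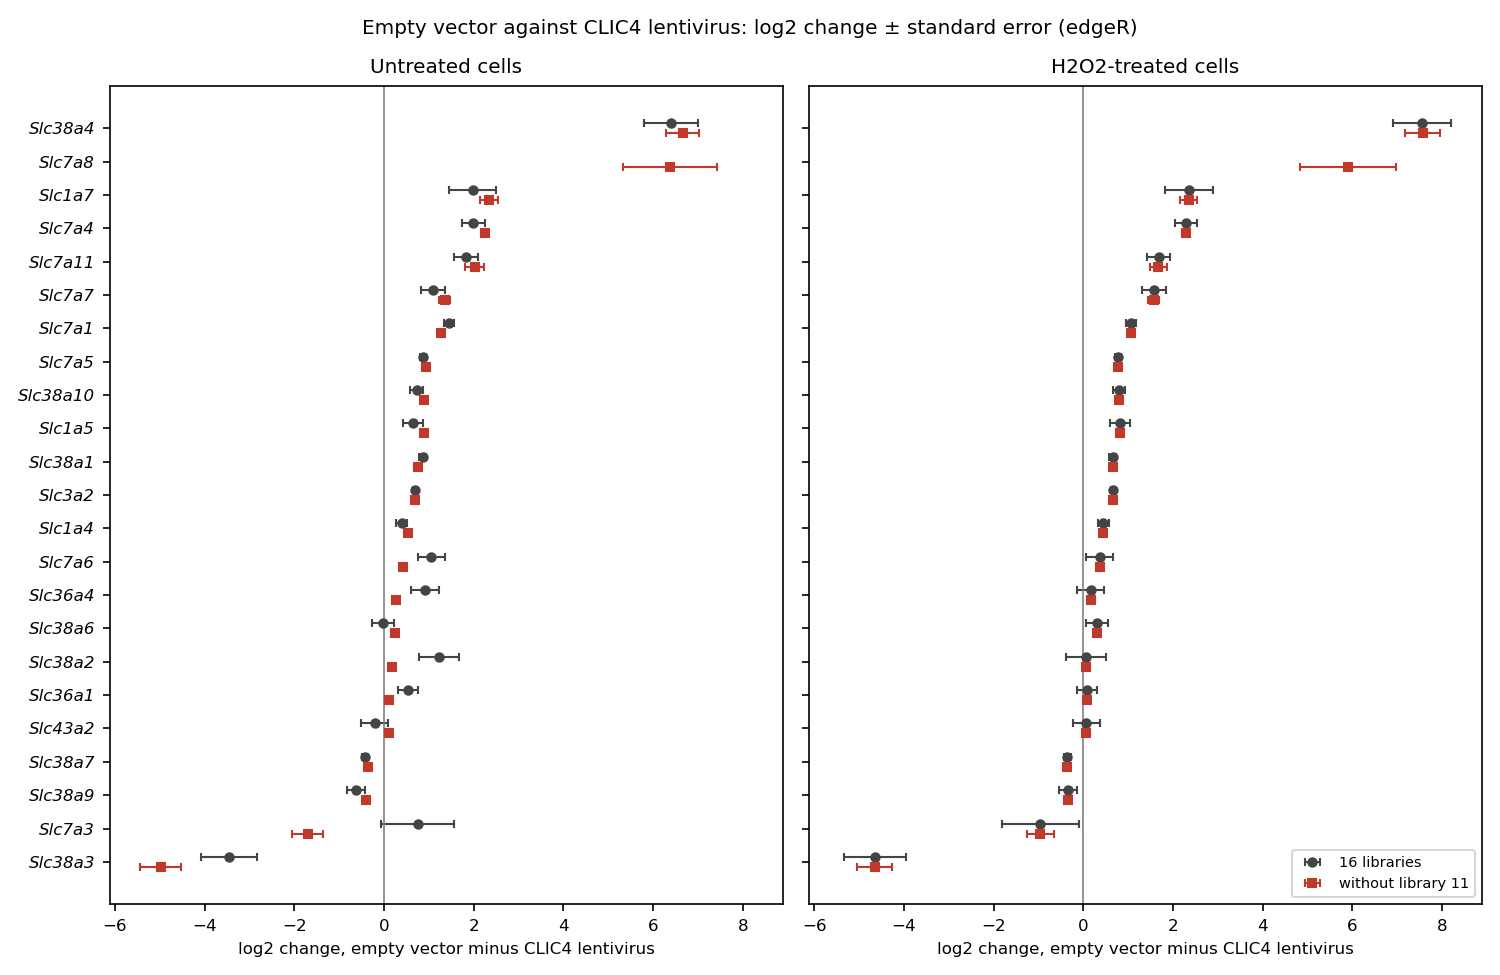
Log2 change with its standard error (x axis, edgeR, empty vector minus lentivirus) of each tested gene (y axis), in untreated cells on the left and treated cells on the right, with 16 libraries (circles) and without library 11 (squares). Library 11 moves Slc7a3, Slc38a3, Slc38a2, Slc7a6 and Slc36a4 most on the left. On the right the log2 changes of both fits nearly coincide, but not their standard errors.

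The cystine exchanger was higher with the empty vector in both its chains. Slc3a2 (chromosome 19, 8706882 to 8723369), the heavy chain shared by several light chains, and Slc7a11 (chromosome 3, 49892526 to 50443614), the light chain xCT that imports cystine in exchange for glutamate, were both called in untreated and treated cells. Slc3a2 stood at 109, 111, 110.2 and 114 CPM in lentivirus libraries 1 to 4 and at 170.2, 178, 182 and 185 CPM in empty-vector libraries 9 to 12. In treated cells Slc3a2 stood at 112, 112, 109 and 114 CPM with the lentivirus and 184, 176, 180.0 and 165 CPM with the empty vector. All empty-vector libraries, library 11 included, lay above all lentivirus libraries. The log2 change of Slc3a2 was 0.69 (standard error 0.048, edgeR adjusted p = 3.71e-08) in untreated and 0.66 (standard error 0.048, edgeR adjusted p = 5.88e-08) in treated cells, and without library 11 the untreated change was 0.68.

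Slc7a11 stood at 1.45, 2.25, 1.87 and 2.05 CPM in libraries 1 to 4 and at 6.84, 6.34, 3.94 and 9.99 CPM in libraries 9 to 12. In treated cells Slc7a11 stood at 2.30, 1.51, 2.37 and 2.80 CPM with the lentivirus and 8.93, 6.82, 7.49 and 5.63 CPM with the empty vector. The vectors did not overlap on the CPM scale, and library 11 was the lowest of the empty-vector libraries. On the FPKM scale library 11 (0.31 FPKM) lay above the untreated lentivirus libraries (0.16 to 0.27 FPKM) but below treated lentivirus library 8 (0.32 FPKM). The log2 change of Slc7a11 was 1.83 (standard error 0.26, edgeR adjusted p = 5.35e-05) untreated and 1.68 (standard error 0.26, edgeR adjusted p = 1.14e-04) treated, and 2.02 untreated without library 11. The other heavy chain, Slc3a1, which serves cystine and cationic amino acid uptake in kidney and intestine, was not tested with 16 libraries. It had 33 counts over the untreated lentivirus libraries and 2 over empty-vector libraries 9, 10 and 12, a ratio of 12.9 (exact 95% counting interval 3.30 to 111), while library 11 alone held 46. Intervals cover counting error only.

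Among the light chains for large neutral amino acids, Slc7a5 (chromosome 8, 121881150 to 121907694), which brings in leucine and other essential amino acids in exchange for glutamine, was higher with the empty vector. Slc7a5 stood at 137, 127, 135 and 132 CPM in libraries 1 to 4 and at 260.0, 262, 204 and 239 CPM in libraries 9 to 12. In treated cells Slc7a5 stood at 134, 136, 142 and 141 CPM with the lentivirus and 234, 245, 241 and 224 CPM with the empty vector. Library 11 was the lowest empty-vector library and still lay above all lentivirus libraries. On the FPKM scale it did so only narrowly (44.30 FPKM, against 44.18 FPKM in treated lentivirus library 7). The log2 change of Slc7a5 was 0.86 (standard error 0.071, edgeR adjusted p = 1.86e-07) untreated, 0.94 without library 11, and 0.78 (standard error 0.071, edgeR adjusted p = 5.60e-07) treated. Slc7a8, the related light chain LAT2, had 0 counts in all 8 lentivirus libraries. With the empty vector it had 15, 11, 0 and 5 counts in libraries 9 to 12 and 12, 5, 7 and 6 in libraries 13 to 16. Against a floor of 3 counts over the group, Slc7a8 was at least 10.8-fold higher untreated (13.2-fold without library 11) and at least 9.91-fold higher treated. It passed the filter without library 11 only through empty-vector libraries, so its calls there carry no weight.

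Slc7a6 (chromosome 8, 106168857 to 106198706) and Slc7a7 (chromosome 14, 54369442 to 54417780) encode the y+L light chains, which exchange cationic for neutral amino acids. Slc7a6 stood at 37.7, 36.4, 38.1 and 38.0 CPM in libraries 1 to 4 and at 49.6, 51.0, 162 and 49.9 CPM in libraries 9 to 12. In treated cells Slc7a6 stood at 38.2, 37.1, 39.1 and 38.8 CPM with the lentivirus and 48.5, 50.3, 48.2 and 50.0 CPM with the empty vector. The vectors did not overlap, and library 11 stood far above the rest. With it the untreated log2 change of Slc7a6 was 1.06 (standard error 0.31, edgeR adjusted p = 0.00994) and without it 0.42 (standard error 0.033, edgeR adjusted p = 5.95e-10). The treated change was 0.36 (standard error 0.30, edgeR adjusted p = 0.371), called only without library 11 (0.36, edgeR adjusted p = 1.42e-09) or in fits on the compared groups alone (adjusted p = 1.36e-07) and with quality weights (3.52e-09). Fitted on the compared groups alone, the untreated call with library 11 was lost (adjusted p = 0.0882).

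Slc7a7 stood at 1.20, 1.43, 1.34 and 1.29 CPM in libraries 1 to 4 and at 3.07, 3.55, 1.11 and 3.44 CPM in libraries 9 to 12. In treated cells Slc7a7 stood at 1.19, 1.24, 1.05 and 1.23 CPM with the lentivirus and 3.30, 4.09, 3.62 and 3.00 CPM with the empty vector. Library 11 lay below the untreated lentivirus libraries, and the other 7 empty-vector libraries lay above all of the lentivirus. Its log2 change was 1.09 (standard error 0.26, edgeR adjusted p = 0.00318) untreated, 1.35 without library 11, and 1.57 (standard error 0.26, edgeR adjusted p = 2.26e-04) treated. The untreated call was not made by limma on log2(FPKM + 1) (0.30, adjusted p = 0.279). Of the Slc43 genes, Slc43a2, which encodes the uniporter LAT4 for branched-chain amino acids and phenylalanine, was not called with 16 libraries. Its untreated change turned from -0.20 (edgeR adjusted p = 0.583) to 0.10 (0.0575) without library 11, where it stood at 6.71 CPM against 27.1 to 30.2. Slc43a1, encoding LAT3, and Slc43a3, encoding a purine base carrier of the family, had at most 11 counts over any group.

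**Figure D3:**
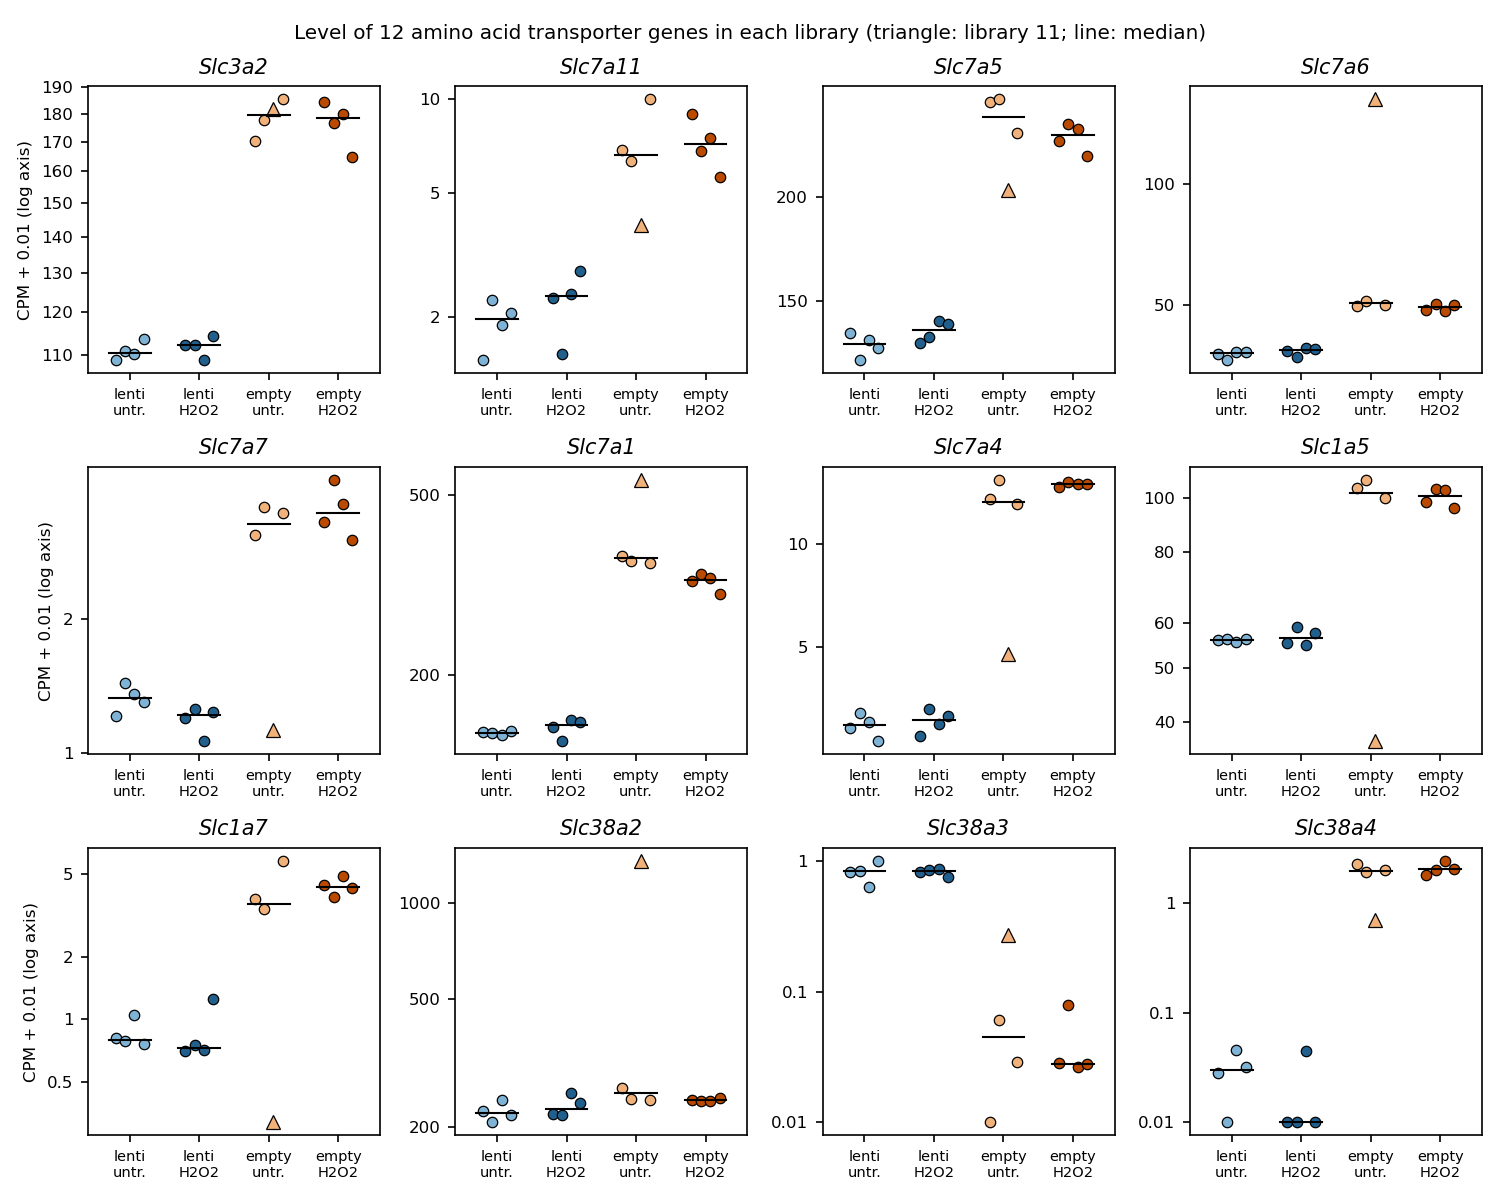
CPM of 12 transporter genes (y axis, log scale with 0.01 added) in each library of the 4 groups (x axis), with a line at the group median and library 11 as a triangle. Slc38a3 is the 1 gene of the 12 that is lower with the empty vector, and Slc38a2 differs between the vectors by little apart from library 11.

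Slc7a1, Slc7a4 and Slc7a3 of the cationic amino acid carrier branch, which works without a heavy chain, did not move alike. Slc7a1 (chromosome 5, 148327410 to 148399904), the main carrier of arginine and lysine in proliferating cells, was higher with the empty vector. Slc7a1 stood at 149, 148, 147 and 150.2 CPM in libraries 1 to 4 and at 367, 358, 541 and 354 CPM in libraries 9 to 12. In treated cells Slc7a1 stood at 153, 142, 159 and 157 CPM with the lentivirus and 323, 334, 327 and 303 CPM with the empty vector. All empty-vector libraries lay above all lentivirus libraries, and library 11 was the highest. The log2 change of Slc7a1 was 1.45 (standard error 0.11, edgeR adjusted p = 1.09e-07) untreated, 1.28 without library 11, and 1.07 (standard error 0.11, edgeR adjusted p = 2.21e-06) treated.

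Slc7a4 (chromosome 16, 17572018 to 17583214), a member of the branch whose own transport activity is not settled, stood at 2.89, 3.20, 3.01 and 2.65 CPM in libraries 1 to 4 and at 13.5, 15.3, 4.77 and 13.0 CPM in libraries 9 to 12. In treated cells Slc7a4 stood at 2.75, 3.28, 2.96 and 3.13 CPM with the lentivirus and 14.6, 15.1, 14.9 and 14.9 CPM with the empty vector. Library 11 lay between the vectors on the CPM scale only. On the FPKM scale library 11 (1.89 FPKM) lay below the untreated lentivirus libraries (2.10 to 2.52 FPKM). The log2 change of Slc7a4 reached 1.99 (standard error 0.25, edgeR adjusted p = 1.68e-05) untreated, 2.24 without library 11, and 2.29 (standard error 0.26, edgeR adjusted p = 4.60e-06) treated. Slc7a3, a cationic carrier best known from brain, turned with library 11. It was measured at 0.339 to 0.937 CPM in libraries 1 to 4, at 0.106, 0.203 and 0.223 CPM in libraries 9, 10 and 12, and at 3.52 CPM in library 11. The untreated log2 change of Slc7a3 was 0.75 (standard error 0.81, edgeR adjusted p = 0.446) with 16 libraries and -1.71 (standard error 0.35, edgeR adjusted p = 2.00e-04) without library 11. In treated cells it was -0.96 (edgeR adjusted p = 0.411) and, without library 11, -0.96 (0.00739). Slc7a2 and Slc7a14 of the same branch had at most 5 counts over any group.

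The neutral amino acid exchangers of the Slc1 family were higher with the empty vector in all libraries but 11. Slc1a5 (chromosome 7, 16781340 to 16798274), the glutamine carrier ASCT2, stood at 56.0, 56.2, 55.6 and 56.1 CPM in libraries 1 to 4 and at 104, 107, 37.1 and 99.8 CPM in libraries 9 to 12. In treated cells Slc1a5 stood at 55.2, 59.0, 54.8 and 57.6 CPM with the lentivirus and 98.2, 104, 103 and 95.7 CPM with the empty vector. Library 11 lay below every lentivirus library, and the other 7 empty-vector libraries lay above all of them. The log2 change of Slc1a5 was 0.64 (standard error 0.23, edgeR adjusted p = 0.0285) untreated, 0.89 (standard error 0.036, edgeR adjusted p = 2.28e-14) without library 11, and 0.82 (standard error 0.23, edgeR adjusted p = 0.00890) treated. The untreated call is close to the threshold: it was lost when any 1 of libraries 1, 2, 3, 4, 9, 10 and 12 was left out (log2 change 0.52 to 0.64, adjusted p 0.0565 to 0.0797) and in a fit on the compared groups alone (adjusted p = 0.143). Slc1a4, the related ASCT1, ran from 45.4 to 48.8 CPM with the lentivirus and from 60.3 to 68.4 CPM with the empty vector apart from library 11 (41.4 CPM). Its log2 change was 0.39 (standard error 0.12, edgeR adjusted p = 0.0125) untreated, 0.53 without library 11, and 0.45 (standard error 0.12, edgeR adjusted p = 0.00650) treated. The untreated call of Slc1a4 was lost on the compared groups alone (adjusted p = 0.0917). Limma on log2(FPKM + 1) made no call of Slc1a4 untreated (adjusted p = 0.275) or treated (0.0836), nor of Slc1a5 untreated (0.290) or treated (0.0707).

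Slc1a7 (chromosome 4, 107968332 to 108013532), the glutamate carrier EAAT5 best known from retina, was low and higher with the empty vector. Slc1a7 stood at 0.803, 0.774, 1.04 and 0.754 CPM in libraries 1 to 4 and at 3.79, 3.38, 0.311 and 5.77 CPM in libraries 9 to 12. In treated cells Slc1a7 stood at 0.697, 0.739, 0.701 and 1.24 CPM with the lentivirus and 4.40, 3.85, 4.90 and 4.29 CPM with the empty vector. Library 11 was the lowest of all 16, while the other empty-vector libraries lay above all lentivirus libraries. Its log2 change was 1.98 (standard error 0.53, edgeR adjusted p = 0.00609) untreated, 2.34 without library 11, and 2.36 (standard error 0.53, edgeR adjusted p = 0.00221) treated. A fit on the compared groups alone ended the untreated call (adjusted p = 0.0638), as did limma on log2(FPKM + 0.1) (1.22, adjusted p = 0.0840). Slc1a2 and Slc1a3, the glutamate carriers of glia, had 1 count each over all 16 libraries.

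The sodium-coupled Slc38 family split between its members. Slc38a4 (chromosome 15, 96994820 to 97055956), a carrier of small neutral amino acids best known from liver, was nearly confined to the empty-vector libraries, and Slc38a3 (chromosome 9, 107650634 to 107669530), the glutamine and histidine carrier SNAT3, nearly to the lentivirus libraries. Slc38a4 stood at 0.0179, 0, 0.0354 and 0.0215 CPM in libraries 1 to 4 and at 2.29, 1.93, 0.700 and 2.03 CPM in libraries 9 to 12. In treated cells Slc38a4 stood at 0, 0, 0.0351 and 0 CPM with the lentivirus and 1.83, 2.00, 2.43 and 2.07 CPM with the empty vector. The lowest value with the empty vector, in library 11, was still above every lentivirus library. Over the treated groups the empty vector had 482 counts and the lentivirus 2, a ratio of 239 (exact 95% counting interval 65.7 to 1977). In untreated cells the counts were 380 and 4, with a log2 change of 6.40 (standard error 0.60, edgeR adjusted p = 7.57e-07), or 6.66 without library 11. The fitted treated change of 7.56 (edgeR adjusted p = 3.18e-07) became 9.85 without library 7, which held both lentivirus counts. Slc38a4 passed the filter only through empty-vector libraries, so its calls carry no weight.

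Slc38a3 stood at 0.821, 0.825, 0.619 and 0.991 CPM in libraries 1 to 4 and at 0, 0.0507, 0.259 and 0.0186 CPM in libraries 9 to 12. In treated cells Slc38a3 stood at 0.809, 0.847, 0.859 and 0.748 CPM with the lentivirus and 0.0181, 0.0690, 0.0164 and 0.0177 CPM with the empty vector. Every empty-vector library lay below every lentivirus library. Its log2 change was -3.46 (standard error 0.63, edgeR adjusted p = 3.78e-04) untreated, -4.98 without library 11, and -4.65 (standard error 0.69, edgeR adjusted p = 7.11e-05) treated, which became -5.38 without library 14. These changes rest on 14 and 7 counts over the untreated and treated empty-vector libraries, against 175 and 186 with the lentivirus. Apart from library 11, Slc38a3 passed the filter only through lentivirus libraries, so its calls carry no weight either.

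Slc38a2 (chromosome 15, 96687392 to 96699730), the carrier SNAT2 that cells raise under amino acid or osmotic stress, was called higher in untreated cells, by an amount that rested on library 11. Slc38a2 stood at 224, 208, 243 and 218 CPM in libraries 1 to 4 and at 264, 246, 1346 and 244 CPM in libraries 9 to 12. In treated cells Slc38a2 stood at 219, 218, 255 and 238 CPM with the lentivirus and 243, 242, 241 and 247 CPM with the empty vector. Outside library 11 the untreated vectors were separated by less than 1 CPM and the treated vectors overlapped. The untreated log2 change of Slc38a2 was 1.23 (standard error 0.44, edgeR adjusted p = 0.0307) with 16 libraries and 0.17 (standard error 0.054, edgeR adjusted p = 0.00852) without library 11, and the treated change was 0.063 (edgeR adjusted p = 0.927). Left out 1 at a time, each of libraries 1, 2, 3 and 4 ended the untreated call (log2 change 1.20 to 1.27, adjusted p 0.0541 to 0.0680), as did the fit on the compared groups alone (0.151) and limma on log2(FPKM + 1) (0.68, 0.0916).

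Slc38a1, the related glutamine carrier SNAT1, was measured at 94.8 to 104 CPM with the lentivirus and 149 to 223 CPM with the empty vector. Its log2 change was 0.86 (standard error 0.083, edgeR adjusted p = 9.05e-07) untreated, 0.75 without library 11, and 0.65 (standard error 0.082, edgeR adjusted p = 1.47e-05) treated. Slc38a10, a less studied member, ran from 128 to 139 CPM with the lentivirus and from 217 to 249.6 CPM with the empty vector apart from library 11 (136 CPM). The log2 changes of Slc38a10 were 0.73 (standard error 0.14, edgeR adjusted p = 5.60e-04) untreated, 0.89 without library 11, and 0.80 (standard error 0.14, edgeR adjusted p = 2.91e-04) treated. The untreated call of Slc38a10 was lost in limma on log2(FPKM + 1) (adjusted p = 0.0570).

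Both lysosomal members were lower with the empty vector. Slc38a7, which exports glutamine and asparagine from lysosomes, changed by -0.43 (standard error 0.077, edgeR adjusted p = 3.72e-04) untreated, -0.36 without library 11, and -0.36 (standard error 0.077, edgeR adjusted p = 0.00156) treated. Slc38a9, the arginine sensor and carrier through which lysosomal amino acids reach the growth kinase mTORC1, changed by -0.62 (standard error 0.20, edgeR adjusted p = 0.0167) untreated and had a value of -0.33 (adjusted p = 0.196) treated. Without library 11 the changes of Slc38a9 were -0.40 and -0.33 (edgeR adjusted p = 3.23e-05 and 9.57e-05). The untreated call of Slc38a9 was lost on the compared groups alone (adjusted p = 0.107) and in limma on log2(FPKM + 1), with library 11 (0.123) and without it (0.224). Slc38a6 turned from -0.016 (adjusted p = 0.959) untreated to 0.25 (1.13e-04) without library 11, and had a log2 change of 0.31 (0.348) in treated cells, called only without library 11 (adjusted p = 3.64e-06) or with quality weights (2.48e-06) or the compared groups alone (1.53e-05). Slc38a8 had 2 counts over all libraries.

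Of the proton-coupled Slc36 carriers, Slc36a1 and Slc36a4, which also sit on lysosomes and endosomes, differed little between the vectors outside library 11. Slc36a4 was measured at 11.7 to 13.3 CPM with the lentivirus, at 13.4 to 15.8 CPM with the empty vector and at 48.9 CPM in library 11. Its untreated log2 change was 0.91 (standard error 0.31, edgeR adjusted p = 0.0232), and 0.27 (standard error 0.059, edgeR adjusted p = 3.31e-04) without library 11. With library 11 the call was lost without library 3 (0.87, adjusted p = 0.0547) and on the compared groups alone (0.132). The treated change was 0.16 (edgeR adjusted p = 0.717, and 0.0114 without library 11). Slc36a1 had a log2 change of 0.54 (standard error 0.22, edgeR adjusted p = 0.0547) untreated, and of 0.12 (0.0276) without library 11, where it stood at 81.4 CPM against 33.8 to 34.9 CPM in the rest of its group. DESeq2 called it with library 11 (0.58, adjusted p = 0.0349). In treated cells Slc36a1 had a log2 change of 0.088 (edgeR adjusted p = 0.793). Slc36a3, not tested, had 35 counts untreated with the empty vector and 2 with the lentivirus, a ratio of 18.3 (exact 95% counting interval 4.69 to 157). Without library 11 the counts of Slc36a3 were 27 and 2, a ratio of 17.3 (4.34 to 150). In treated cells they were 34 and 10. Slc36a2 had at most 2 counts over any group.

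Library 11 stood apart in both directions. Of the 22 tested, 6 were at least 2-fold above the mean of libraries 9, 10 and 12, and 8 were at least 2-fold below it. The same shares over all genes, where library 11 also stood apart, were not counted. These counts are therefore not shown to be particular to the transporters. Slc38a2 stood 5.36-fold above, Slc7a6 3.24-fold and Slc36a4 3.23-fold, while Slc7a3 (19.9-fold) and Slc38a3 (11.2-fold) did so on few counts. Slc1a7 stood at 0.0721 times the mean of the other 3, Slc43a2 at 0.234 times and Slc38a6 at 0.318 times. Slc3a2 was the 1 gene of the 22 whose value in library 11 lay within the range of the other 3. These values depend on the scaling, since the TMM factor of library 11 was 0.721 and those of the other libraries 0.986 to 1.04. On the FPKM scale, which has no such factor, library 11 held 91.2 FPKM of Slc3a2 against 124 to 134, and 56.2 FPKM of Slc7a1 against 52.7 to 54.7. Slc7a13, a light chain of kidney, and Slc7a14 were also counted mainly there, with 15 of 24 and 5 of 6 counts over all libraries.

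**Figure D4:**
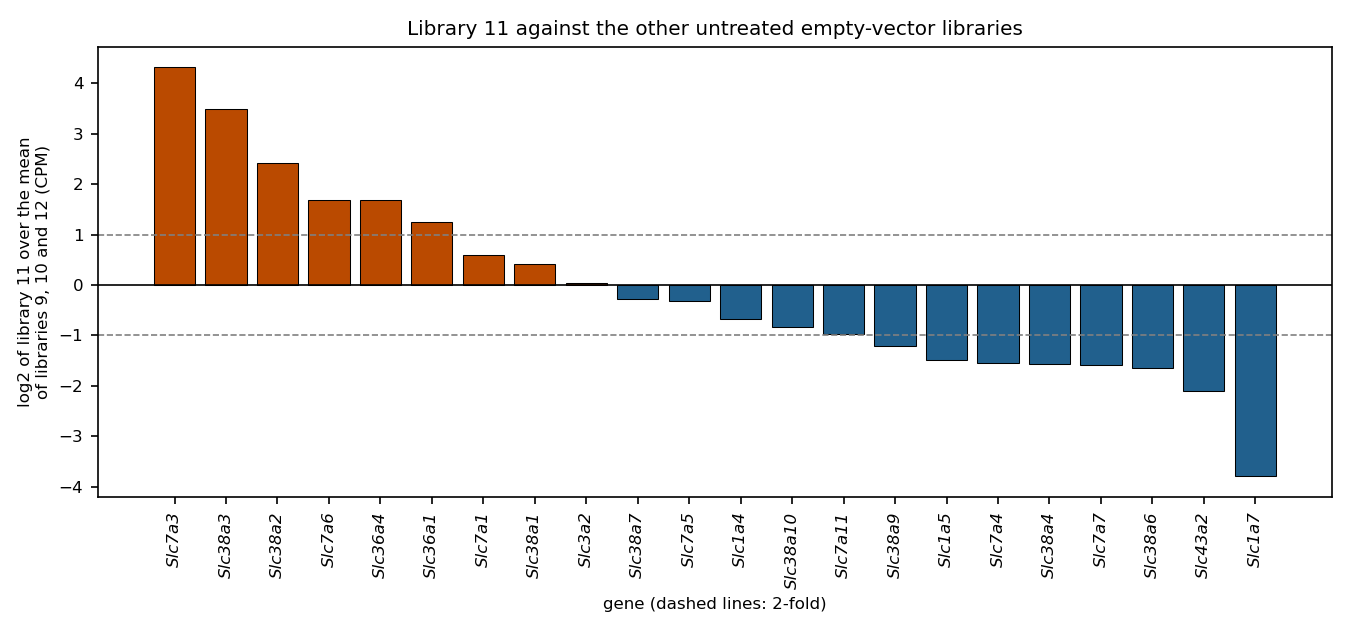
Log2 ratio of library 11 to the mean of the other 3 untreated empty-vector libraries (y axis, TMM-scaled CPM) for the 22 tested genes (x axis), with dashed lines at 2-fold. Of these genes 6 pass the upper line, 8 pass the lower line and Slc3a2 is closest to 0. The shares of all genes passing the lines were not counted.

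H2O2 for 24 h left these genes without a call. In empty-vector cells 0 of the 22 were called by edgeR (background 0.0% in either direction), with log2 changes from -1.91 (Slc7a3) to 0.39 (Slc1a7). An unadjusted p under 0.05 was found for 6 (Slc38a2, Slc38a1, Slc7a3, Slc7a6, Slc7a1 and Slc36a4), against 14.7% of all genes, and all 6 had values below 0. Without library 11 edgeR called 0 of 23 (background 0.123% higher and 0.116% lower), with 3 at an unadjusted p under 0.05 against 13.7%. The log2 change of Slc38a2 was then -0.049 where it had been -1.11, and that of Slc7a6 -0.026 where it had been -0.66. Slc7a3 turned above 0 on few counts, with a mean of 0.177 CPM untreated without library 11 and 0.260 CPM treated. In lentivirus cells 0 of 22 were called (background 0.0%) and 0 had an unadjusted p under 0.05 (1.77% of all genes), with log2 changes from -0.91 to 0.24. The same held without library 11, where 14.6% of all genes had an unadjusted p under 0.05. DESeq2 called none of them in either kind of cell with 16 libraries. Of all 14445 genes it called 72 higher and 152 lower in empty-vector cells, and 0 higher and 1 lower in lentivirus cells.

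The gene nearest to a call was Slc7a1, the arginine and lysine carrier, in empty-vector cells. Its 4 treated libraries (303 to 334 CPM) lay below all 4 untreated ones (354 to 541 CPM), while in lentivirus cells the treated libraries (142 to 159 CPM) overlapped the untreated (147 to 150.2 CPM). The log2 change of Slc7a1 with H2O2 was -0.33 (standard error 0.11, edgeR adjusted p = 0.339) in empty-vector cells and 0.041 (standard error 0.11, edgeR adjusted p = 1.00) in lentivirus cells. Without library 11 the empty-vector change was -0.16 (standard error 0.037, edgeR adjusted p = 0.0594), and DESeq2 on the same libraries called it (-0.16, adjusted p = 0.00946). The difference of the responses, empty vector minus lentivirus, was -0.37 (standard error 0.16, edgeR adjusted p = 0.658) with 16 libraries and -0.20 (standard error 0.050, edgeR adjusted p = 0.0747) without library 11, where DESeq2 gave -0.20 (adjusted p = 0.0210). Of all 14602 genes, DESeq2 without library 11 called 216 higher and 187 lower with H2O2 in empty-vector cells. For the difference it called 138 higher and 295 lower. Slc7a11, the cystine carrier, had a log2 change with H2O2 of 0.089 (edgeR adjusted p = 0.816) in empty-vector and 0.24 (adjusted p = 1.00) in lentivirus cells, within the spread of the libraries. For the difference of responses edgeR called 0 of 22 (background 0.0% in either direction), with Slc7a1 alone at an unadjusted p under 0.05 (5.95% of all genes). Without library 11 edgeR called 0 of 23 (0.0685% higher and 0.123% lower), with Slc7a5 and Slc7a1 at an unadjusted p under 0.05 (16.4%).

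**Figure D5:**
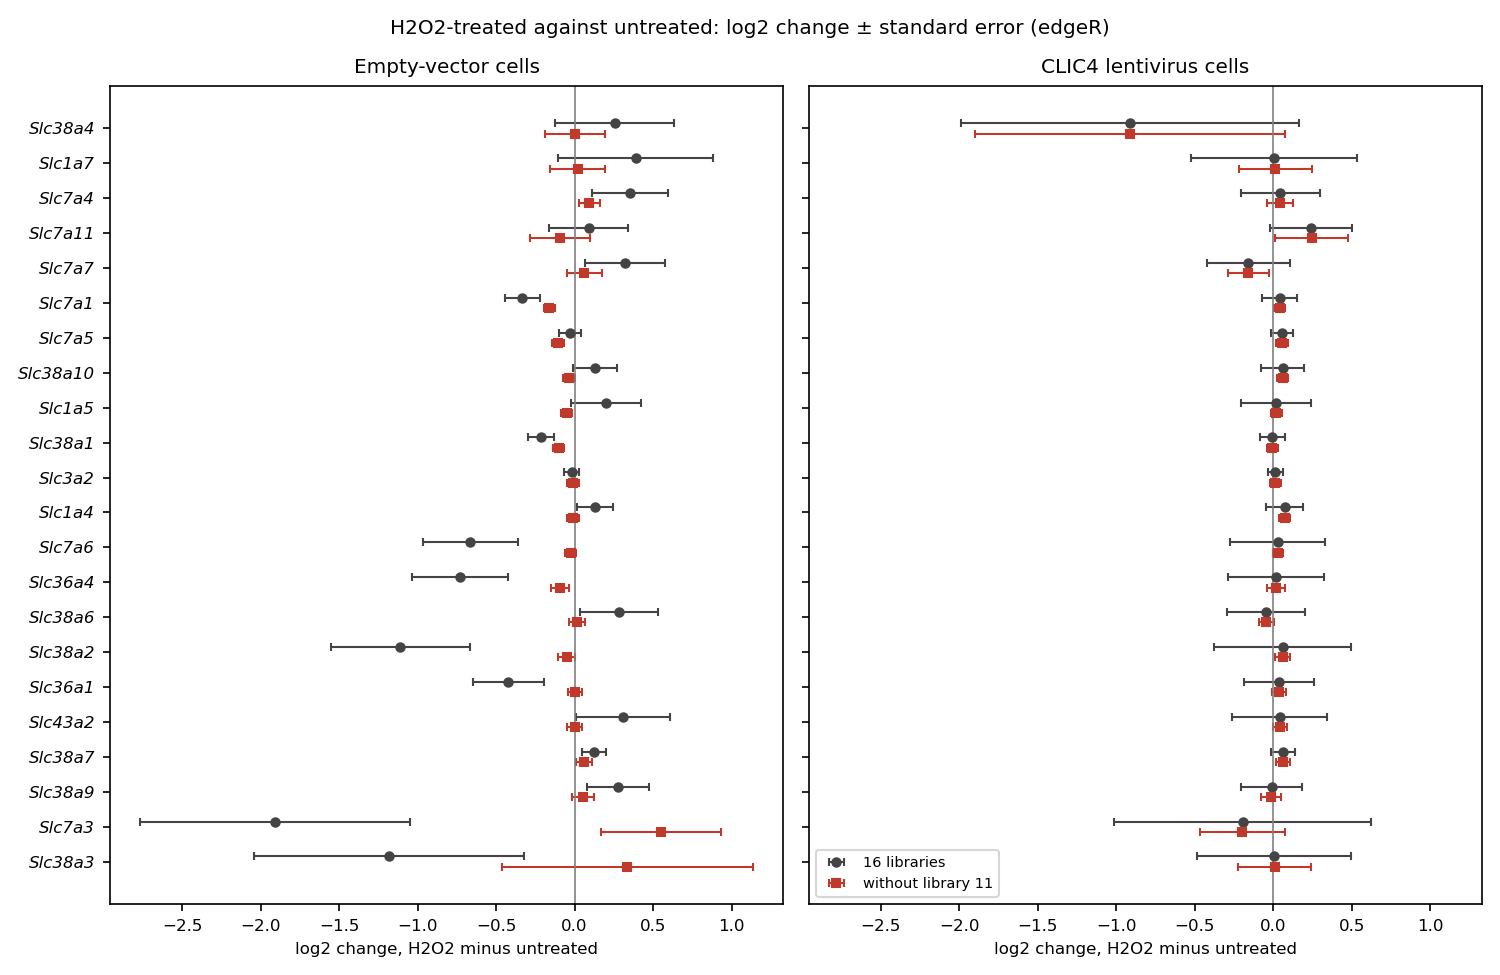
Log2 change with its standard error (x axis, edgeR, H2O2 minus untreated) of the 22 tested genes (y axis), in empty-vector cells on the left and lentivirus cells on the right, with 16 libraries (circles) and without library 11 (squares). Leaving out library 11 moves Slc38a2, Slc7a6 and Slc36a4 to near 0 on the left, and turns Slc7a3 from below 0 to above it.

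Genes that act beside these carriers were read from 4 further lists. The shares of all genes called higher and lower, against which their counts stand, were 29.0% and 24.3% untreated and 22.1% and 20.0% treated. Without library 11 they were 37.0% and 37.3% untreated and 36.6% and 37.2% treated. Of 19 tested carriers of amino acids or peptides from other families, 6 were called higher (31.6%) and 3 lower (15.8%) with the empty vector in untreated cells, and 3 (15.8%) and 4 (21.1%) in treated cells. Without library 11 the counts were 8 (42.1%) and 7 (36.8%), and 6 (31.6%) and 8 (42.1%). Slc15a2, a peptide carrier, changed by -2.34 (standard error 0.10, edgeR adjusted p = 4.21e-10) untreated and -2.04 treated, Slc25a22, a mitochondrial glutamate carrier, by 1.02 and 1.04, Mfsd12, which brings cysteine into lysosomes, by 0.84 and 0.80, and Slc6a9, a glycine carrier, by 0.55 and 0.37. Their median log2 change was 0.19 untreated and -0.12 treated.

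Of 12 tested stress and growth regulators known to act on these carriers, 6 were called higher (50.0%) and 1 lower (8.33%) untreated, and 2 (16.7%) and 1 (8.33%) treated, where the share called higher lay below that of all genes. The counts were 8 (66.7%) and 2 (16.7%), and 7 (58.3%) and 2, without library 11. Ddit3, a transcription factor of the stress response, changed by 1.36 (standard error 0.21, edgeR adjusted p = 8.07e-05) untreated and 1.09 treated. Trib3, a pseudokinase of the same response, changed by 0.79 and 0.98. The untreated changes of Atf3, a stress-induced transcription factor, and Eif2ak3, a kinase that starts the response, depended on library 11. Atf3 moved from 2.57 to 1.24 without it, and Eif2ak3 from 1.08 to 0.50. In treated cells they were called only without library 11, by 1.26 (edgeR adjusted p = 1.79e-05, against 0.0796 with it) and 0.41 (2.27e-09, against 0.271). Atf4 itself, outside the rule for naming and chosen after its values were seen, stood at 73.2 to 89.0 CPM with the lentivirus and 119 to 139.9 CPM with the empty vector, and at 685 CPM in library 11. Its untreated log2 change was 1.68 (standard error 0.44, edgeR adjusted p = 0.00577) with library 11 and 0.64 (standard error 0.055, edgeR adjusted p = 8.35e-09) without it. In the H2O2 comparisons 0 of the 12 were called with 16 libraries, and without library 11 Myc was called higher in empty-vector cells (0.23 (standard error 0.038, edgeR adjusted p = 0.0352)).

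Of 23 tested genes for amino acid sensing by mTORC1, 8 were called higher (34.8%) and 5 lower (21.7%) untreated, and 4 (17.4%) and 6 (26.1%) treated, which is near the shares of all genes. Without library 11 the counts were 7 (30.4%) and 10 (43.5%), and 6 (26.1%) and 11 (47.8%). Sesn3, a sestrin, changed by -2.83 (standard error 0.14, edgeR adjusted p = 1.51e-09) untreated and -3.30 treated, and Sesn2, the leucine sensor of that family, by 2.22 (1.24 without library 11) and 1.22. Castor1, an arginine sensor, changed by 1.16 and 1.33, and Lamtor1, the lysosomal anchor of the Ragulator complex, by -0.58 and -0.42. Of 19 tested genes for the use of cystine, glutamate and glutamine, 12 were called higher (63.2%) and 3 lower (15.8%) untreated, and 11 (57.9%) and 3 treated. They were 12 (63.2%) and 5 (26.3%) in both without library 11. The median log2 change of this list was 0.81 untreated and 0.77 treated, against 0.03 and -0.01 over all genes. Asns, asparagine synthetase, changed by 2.07 (standard error 0.063, edgeR adjusted p = 5.65e-12) untreated and 2.10 treated, and Cth, which makes cysteine from cystathionine, by 2.96 and 3.25. Chac1, which breaks down glutathione, changed by 2.45 and 2.43, and Gpt, an alanine aminotransferase, by -1.37 and -1.56. Of all 4 lists, 0 genes were called in the H2O2 comparisons with 16 libraries.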

How the data were processed

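RNA of 6DT1 cells was extracted with an RNeasy kit and sequenced as Illumina libraries, per the labels' protocols. Reads were processed with cutadapt, STAR and RSEM and mouse build mm10 was used, per the submitters' processing notes. Their versions, the annotation and the strandedness, not given in the sources used here, leave overlapping or antisense genes that cannot be told apart, and reads of close paralogs may be shared. The deposited counts are whole numbers per gene for 25745 genes, which RSEM estimates may have been rounded to. FPKM values were deposited for 25372 genes, with gene length and depth scaled out by the authors.

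Groups came from the sample titles. The members and the other gene lists were chosen with earlier results of these data known, so no count over a list is independent evidence. As the main test, edgeR 4.0.16 under R 4.3.3 fitted robust quasi-likelihood models to the counts of all 16 libraries, 1 coefficient per group, with TMM scaling and filterByExpr, which asks for about 0.182 CPM in 4 libraries and left 14445 genes. P-values were adjusted by Benjamini-Hochberg over all genes tested, and a standard error is the log2 change over the square root of F. There were 5 comparisons: the empty vector minus the lentivirus without and with H2O2, H2O2 minus untreated with either vector, and the difference between the H2O2 responses. Levels are TMM-scaled CPM. Where a group had 0 counts a floor of 3 counts over the group was used, and a ratio with its exact 95% interval for 1 to 3 counts. Gene positions are those of GENCODE vM21 for mm10, matched by symbol, and promoters are those of RefSeq.

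Values are given in every library for members called at 2-fold or more in a vector comparison and for Slc7a11, Slc3a2, Slc7a5, Slc1a5, Slc38a2 and Slc7a1. Each other list is shown by up to 4 genes with the smallest adjusted p in untreated cells. Alternatives were RLE size factors, DESeq2 1.42.0, limma 3.58.1 voom with quality weights, no filter, 10 CPM in 4 libraries, only the groups compared, limma with log2(FPKM + 1) or with log2(FPKM + 0.1) for genes at 0.5 FPKM or more in 4 libraries, log2(FPKM + 1) with no filter, and leaving out each library. A pseudocount makes the fold change of a low gene smaller than it was. RLE, DESeq2 and log2(FPKM + 1) without library 11 were chosen after seeing the data. No 2 libraries agreed within sampling noise, since chi-square per degree of freedom was 5.051 or more. The edgeR fit was tested on simulated data with the same spread for all genes and no library that stands apart. That test therefore does not bear on the effect of library 11. Figures were drawn with matplotlib 3.10.9.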

Additional observations from a re-analysis of the deposited data

Results flagged for a closer look

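Each of the 22 tested genes was examined in the 4 groups, 88 sets of 4 libraries, for a library that stands apart by Dixon's gap criterion at the 95% level. It marked 17 sets, where chance marks about 1 in 20. Library 11 was the marked library in 12 of them, 7 times as the highest and 5 times as the lowest. It was highest for Slc36a1 (81.4 CPM, the other 3 at 33.8 to 34.9), Slc36a4 (48.9 CPM, against 14.2 to 15.8), Slc38a1 (223 CPM, against 164 to 172), Slc38a2 (1346 CPM, against 244 to 264), Slc7a1 (541 CPM, against 354 to 367), Slc7a3 (3.53 CPM, against 0.106 to 0.223) and Slc7a6 (162 CPM, against 49.6 to 51.0). It was lowest for Slc1a4 (41.4 CPM, against 64.8 to 68.4), Slc1a5 (37.1 CPM, against 99.8 to 107), Slc38a6 (13.4 CPM, against 39.3 to 44.3), Slc38a9 (3.55 CPM, against 7.74 to 8.54) and Slc43a2 (6.71 CPM, against 27.1 to 30.2).

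The other 5 marked libraries lay in the treated groups. Among treated empty-vector libraries, library 16 was lowest for Slc1a4 (60.3 CPM, against 67.2 to 67.9) and Slc38a1 (149.0 CPM, against 158.7 to 160.5), and library 14 was highest for Slc38a3 (0.0690 CPM, against 0.0164 to 0.0181). Among treated lentivirus libraries, library 8 was highest for Slc1a7 (1.24 CPM, against 0.697 to 0.739) and library 7 for Slc38a4 (0.0351 CPM, against 0 in the other 3). The marks of Slc38a3 and Slc38a4 rest on few counts, 4 against 1 in each other library of the group, and 2 against 0. Dixon's criterion takes no account of such counting error.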

How the results depend on the processing

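No paired analysis was possible because the library numbers run from 1 to 16 and none is shared between groups. Of the 22 transporters tested, 18 were called in untreated cells and 14 in treated cells, where 53.3% and 42.1% of all genes were called. The untreated count was 11 with the compared groups alone (32.0% of all genes), 11 with log2(FPKM + 1) (45.8%) and 10 with log2(FPKM + 0.1) (45.0%), and the treated count was 9 of 16 with the 10 CPM filter (41.6%), under which fewer genes were tested. Leaving out 1 library at a time gave 16 to 22 calls untreated and 14 to 20 treated, highest without library 11 in both, where 74.4% and 73.8% of all genes were called (16 to 19 and 14 to 15 over the others), and 0 to 0 in the 3 comparisons of H2O2. Without library 11 and with DESeq2, 1 gene (Slc7a1) was called in empty-vector cells with H2O2 and 1 in the difference of responses. Of all 14602 genes that fit called 216 higher and 187 lower in the former, and 138 higher and 295 lower in the latter. The untreated direction reversed for 3 genes. Slc38a6 became 0.27 with quality weights, 0.0075 without library 3, 0.25 without library 11, and 0.26, 0.26 and 0.27 without library 11 and with RLE, DESeq2 and log2(FPKM + 1). Slc43a2 became 0.12 with quality weights, 0.10 without library 11, and 0.11, 0.11 and 0.17 in those 3 fits. Slc7a3 became -1.64, -1.71, and -1.70 and -1.71 with RLE and DESeq2. When 1 library was left out, the untreated change ranged from -0.15 to 0.25 for Slc38a6, from -0.35 to 0.10 for Slc43a2 and from -1.71 to 1.14 for Slc7a3. The cause was not tested. RLE size factors and the fit without a filter moved no count by over 1.5 times. On the log2(FPKM + 1) scale the median of all genes shifted by 0.110 in empty-vector cells with H2O2 and by 0.105 in the difference of responses. Genes with few counts (Slc38a3, Slc38a4, Slc7a3, Slc1a7 and the 12 not tested) are limited by depth.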
